A study of Mus musculus with 12 samples.

Results

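A set of 9 enzyme genes of nucleotide synthesis was followed in BV2, a mouse cell line made immortal and used as a model of microglia, which are macrophages that reside in nervous tissue. The 9 genes, Rrm1, Rrm2, Tyms, Dut, Tk1, Cad, Umps, Paics and Ppat, were taken by symbol from the 27487 genes of the deposited table. Each symbol stands on a single row, and all 9 passed the filter on low counts, as did 16387 genes in all. Polyadenylated RNA was sequenced in 12 libraries, 4 per group. In the Neu+NETS group, BV2 cells were cultured with primary mouse neutrophils that had been treated with phorbol 12-myristate 13-acetate (PMA), a phorbol ester used to make neutrophils release extracellular traps. In the Neu group, the added primary neutrophils had no PMA, and in the CTR group BV2 cells were cultured alone. The labels name retina as the tissue beside the BV2 line, and give no dose, time or ratio of cells. The study's question is the response of microglia to neutrophils and to released traps. Any removal of neutrophils ahead of the RNA extraction is not described in the sources used here. No group received PMA without neutrophils, so an effect of carried-over PMA on BV2 cells and an effect of traps cannot be told apart.

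Cells make DNA from deoxynucleotides, and supply rises when a cell copies its genome. Ribonucleotide reductase turns ribonucleotides into deoxynucleotides and is built from a large catalytic subunit, Rrm1, and a small radical-bearing subunit, Rrm2. Thymidylate, the nucleotide particular to DNA, comes from thymidylate synthase (Tyms), which uses dUMP supplied in part by the dUTPase Dut, or from the salvage of thymidine by thymidine kinase 1 (Tk1). Upstream, Cad catalyses the opening steps of pyrimidine synthesis and Umps its closing steps, while Ppat catalyses the committed step of purine synthesis and Paics later steps. Rrm2, Tyms and Tk1 are textbook S phase genes, and activated or growing cells also use the pathway to make RNA.

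Each library held 53512190 to 68316549 estimated counts, and the members had 1969 to 29245 of them in a library. Levels are FPKM (fragment numbers that the authors scaled by gene length and sequencing depth), listed for replicates 1 to 4 or as mean ± SD (n = 4 libraries). Log2 fold changes are given ± SE from a fit across all genes, with Benjamini-Hochberg adjusted p-values from the two-sided quasi-likelihood test of edgeR, and genes under 0.05 were called. The labels do not say that replicates were separate cultures, so the p-values rest on library-to-library spread that may be no more than technical. Replicate 4 of Neu stood apart: the chi-square per degree of freedom between libraries over genes was 14.6 to 15.6 for its 3 pairs within Neu, against 6.82 to 7.56 among the other Neu libraries and 10.1 to 13.4 within the other groups. The size of this statistic depends on the unit of the counts. With counts divided by 4, it was 4.17 to 4.49, 1.88 to 2.10 and 2.75 to 3.75 for these respective sets of pairs. Without Neu replicate 4, 9 of 9 members were still called lower in Neu than in CTR and 9 of 9 higher in Neu+NETS than in Neu. Of the 16706 genes tested in that setting, 4506 were called lower and 4764 higher in these respective comparisons. In bulk RNA, fewer cells of a kind and less RNA per cell cannot be told apart.

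The label of microglia was checked against 12 markers of microglia and macrophages, whose summed level was 586 to 613 FPKM in Neu+NETS, 957 to 1002 in Neu and 948 to 1008 in CTR. Csf1r, the receptor of colony-stimulating factor 1, averaged 26.7 FPKM in Neu+NETS, 87.9 in Neu and 91.3 in CTR, while P2ry12, a receptor of resting microglia, stayed under 1 FPKM in all libraries. All 12 of these markers were called lower in Neu+NETS than in CTR, where 23.7% of all genes tested were. Of 5 measured markers of retinal neurons and glia, 4 stayed under 1 FPKM in every library. The summed level of 6 measured neutrophil markers was 0.788 to 1.24 FPKM in Neu+NETS, 13.7 to 14.3 in Neu and 5.61 to 7.06 in CTR. Most of the sum in Neu was Il1r2, a decoy receptor of interleukin 1, at 8.03 ± 0.302 FPKM. Most of the sum in CTR, BV2 cells alone, was Csf3r, at 5.15 ± 0.230 FPKM. Csf3r averaged 4.15 FPKM in Neu and 0.691 in Neu+NETS, and Mmp9 0.215 in Neu+NETS, 1.46 in Neu and 0.548 in CTR. Of 5 neutrophil markers tested in Neu against CTR, 2 (Il1r2 and Mmp9) were called higher, 0 lower and 3 were not called. Of the 6 measured, 3 stayed under 1 FPKM in every library, and S100a8, which neutrophils carry in large amounts, averaged 0.0547 FPKM in Neu+NETS, 0.189 in Neu and 0.257 in CTR. The sum of 7 neutrophil precursor markers was 0.0713 to 0.191 FPKM in Neu+NETS, 1.31 to 1.72 in Neu and 0.234 to 0.617 in CTR. Lcn2 averaged 0.0908 FPKM in Neu+NETS, 0.950 in Neu and 0.223 in CTR, and Prtn3 averaged 0.0462, 0.399 and 0.0645. These 2, the only precursor markers past the filter, were called higher in Neu than in CTR, where 26.1% of all genes tested were. Lcn2 was 4.20-fold higher (adjusted p = 5.08e-06) and Prtn3 6.26-fold (adjusted p = 0.0227). Mpo, the myeloperoxidase gene, and Elane, the neutrophil elastase gene, were listed at 0 in all Neu+NETS libraries and averaged under 0.1 FPKM in Neu and in CTR. These markers moved with the groups, and their part in the changes below was not tested.

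The promoters of 2 pairs of members are shown, because the values below set the partners of each pair beside each other. Rrm1 and Rrm2 encode the subunits of a single enzyme. Paics and Ppat lie head to head on chromosome 5, where their annotated spans overlap by 272 bases in the deposited table (77099154 to 77099425, GRCm39). Each sequence is the RefSeq window of 300 bases, 250 before the start site and 50 from it, on the strand of the gene in build GRCm38.p6. Rrm1 lies at chr7:102441445-102441744 (plus strand), Rrm2 at chr12:24708004-24708303 (plus), Paics at chr5:76951052-76951351 (plus) and Ppat at chr5:76951529-76951828 (minus). Capitals mark matches to the letters searched, and they are matches of letters only.
Rrm1: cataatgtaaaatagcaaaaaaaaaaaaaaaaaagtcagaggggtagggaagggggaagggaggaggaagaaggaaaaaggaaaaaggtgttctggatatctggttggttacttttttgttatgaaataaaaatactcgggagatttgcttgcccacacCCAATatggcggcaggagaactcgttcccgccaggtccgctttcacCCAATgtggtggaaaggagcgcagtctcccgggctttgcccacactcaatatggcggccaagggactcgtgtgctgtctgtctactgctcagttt
Rrm2: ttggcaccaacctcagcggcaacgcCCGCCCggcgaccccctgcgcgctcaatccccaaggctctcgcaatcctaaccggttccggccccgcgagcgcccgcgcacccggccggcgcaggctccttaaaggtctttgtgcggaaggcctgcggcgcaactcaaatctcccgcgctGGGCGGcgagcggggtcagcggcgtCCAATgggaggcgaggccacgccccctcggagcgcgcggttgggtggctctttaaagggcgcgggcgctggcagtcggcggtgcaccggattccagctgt
Paics: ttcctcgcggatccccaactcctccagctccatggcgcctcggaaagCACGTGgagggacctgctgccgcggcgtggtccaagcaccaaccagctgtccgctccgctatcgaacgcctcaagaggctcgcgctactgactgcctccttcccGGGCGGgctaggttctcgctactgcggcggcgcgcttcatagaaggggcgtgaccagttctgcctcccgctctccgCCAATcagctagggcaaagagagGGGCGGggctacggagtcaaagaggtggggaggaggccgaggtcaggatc
Ppat: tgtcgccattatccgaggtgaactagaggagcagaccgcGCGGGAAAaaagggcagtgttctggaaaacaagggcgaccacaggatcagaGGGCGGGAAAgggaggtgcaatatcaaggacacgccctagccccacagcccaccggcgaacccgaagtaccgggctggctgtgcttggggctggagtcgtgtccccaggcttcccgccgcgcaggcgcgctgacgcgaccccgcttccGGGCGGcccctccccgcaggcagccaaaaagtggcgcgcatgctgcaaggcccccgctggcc

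Both strands were searched for CCAAT, for the GC box GGGCGG, for the E-box CACGTG, for TTTGAA and for 4 spellings of the E2F motif (TTTGGCGC, TTTCCCGC, TTTCGCGC and TTTGCCGC). The Rrm1 window held 2 CCAAT matches, 45 and 91 bases upstream of the start site, and no GC box. The Rrm2 window held 1 CCAAT match, 50 bases upstream, and GC boxes 75 and 225 bases upstream. The Paics window held an E-box 203 bases upstream, a CCAAT match 23 bases upstream, and a GC box 99 bases upstream beside another at the start site. The Ppat window held 2 E2F matches, 158 and 211 bases upstream, the nearer of which overlaps a GC box, and a further GC box 12 bases upstream. Over the 9 members, 8 windows held a GC box (35.7% of 32851 RefSeq windows of this length did), 3 held CCAAT (37.4%), 2 the E-box (7.15%), 1 an E2F spelling (2.26%) and 1 TTTGAA (17.9%). These counts describe the windows, and a missing match says only that these letters are not in this window.

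All 9 enzyme genes were lower in Neu than in CTR and higher in Neu+NETS than in Neu, and the groups did not overlap in FPKM for any member in either comparison. Of all genes tested, 29% lay wholly lower in Neu than in CTR and 32.6% wholly higher in Neu+NETS than in Neu. Between Neu+NETS and CTR, the groups did not overlap for 7 of the 9 members. The share over all genes is not reported here for that comparison, so separation of these 2 groups below has no background beside it. In Neu against CTR, 9 of 9 fell, where 27.9% of all genes tested were called lower and 26.1% higher. The members' median log2 fold change was -0.88, beside 0.02 over all genes. In Neu+NETS against Neu, 9 of 9 rose, where 29.4% of all genes were called higher and 33.1% lower, and the median was 1.06 beside -0.05 over all genes. In Neu+NETS against CTR, the members parted: Rrm2, Umps, Ppat, Dut and Cad rose, Tk1 fell, and Rrm1, Tyms and Paics were not called. That is 5 higher and 1 lower of 9, where 21.6% of all genes were called higher and 23.7% lower, with a median of 0.18 beside 0.00 over all genes. The 3 comparisons share libraries, so they are not independent of each other. The members were chosen with earlier results of these data known, so these shares and medians describe the list and do not test it. The share of higher calls among all called genes depended on the method. With limma on the authors' FPKM, which changed the scaling, the test and the genes kept (11626), it was 59.9% in Neu+NETS against Neu (47.1% by edgeR), 58.5% in Neu+NETS against CTR (47.6%) and 38.7% in Neu against CTR (48.3%). Without the filter on low FPKM, limma gave 53.8% in Neu+NETS against Neu, 56.8% in Neu+NETS against CTR and 44.6% in Neu against CTR. Median-of-ratios scaling alone, within edgeR, gave 48.1% in Neu+NETS against Neu, 51.6% in Neu+NETS against CTR and 49.5% in Neu against CTR.

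**Figure D1:**
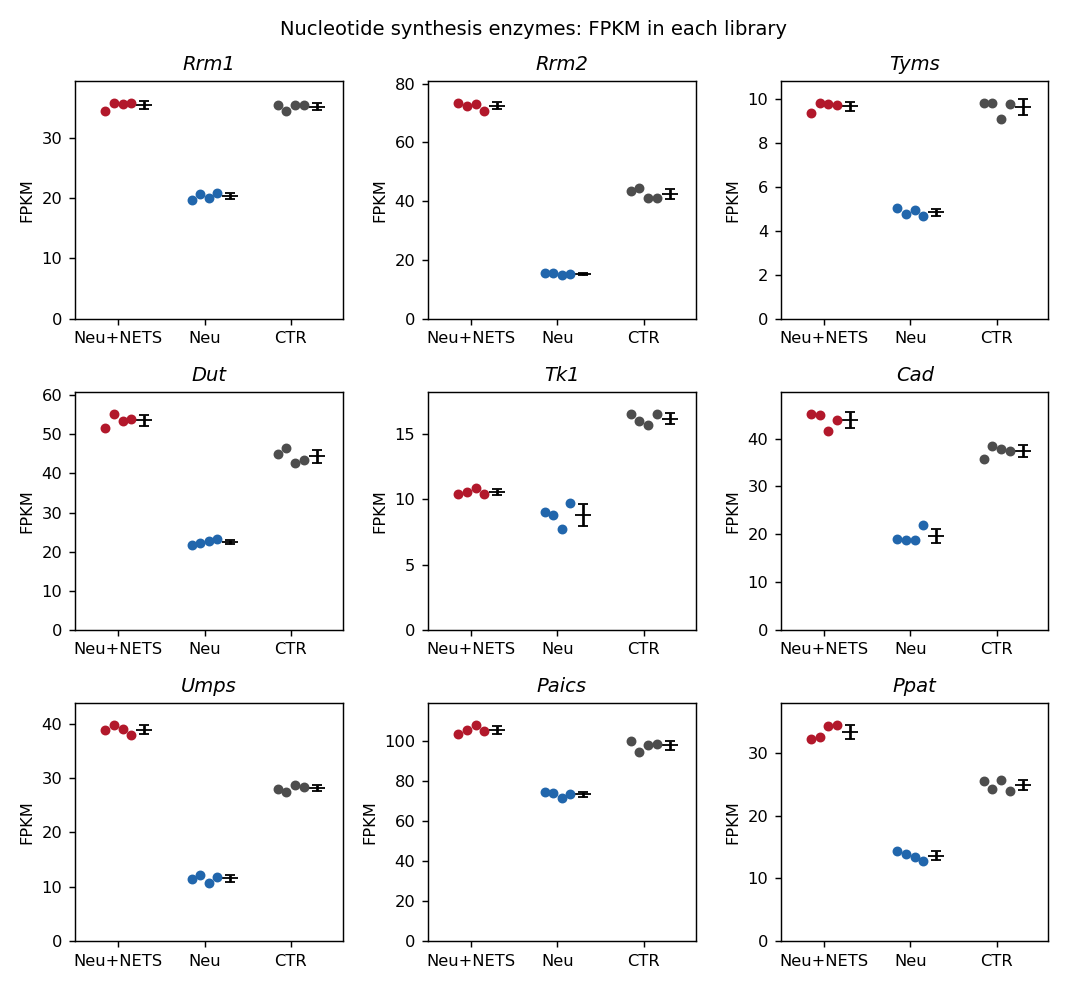
FPKM of each enzyme gene (y axis, from 0) in the 4 libraries of Neu+NETS, Neu and CTR (x axis); points are libraries, black bars mean ± SD. Neu has the lowest mean in all 9 panels, and CTR has the highest mean for Tk1 alone.

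**Figure D2:**
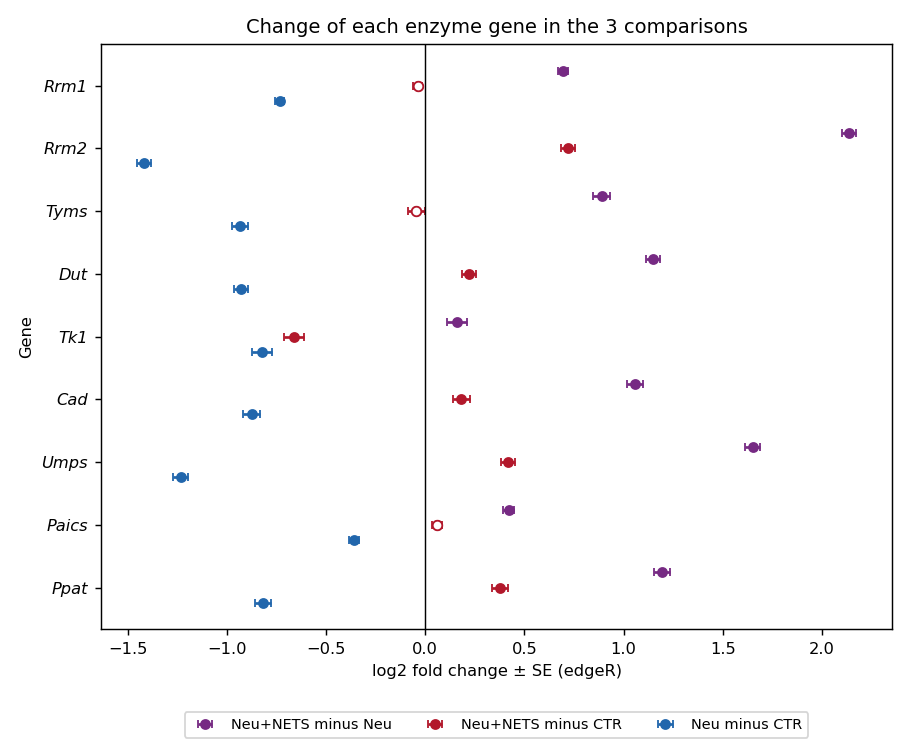
Log2 fold change ± SE (x axis) of each enzyme gene (y axis) in the 3 comparisons; open points were not called at an adjusted p of 0.05. Rrm2 spans the widest interval, with -1.42 in Neu minus CTR and 2.14 in Neu+NETS minus Neu.

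Of the 9 genes, Rrm2 changed most in both comparisons with the Neu group. Rrm2 (ENSMUSG00000020649; chromosome 12, 24758240 to 24764145, plus strand, GRCm39) had 73.6, 72.5, 73.0 and 70.8 FPKM in Neu+NETS, 15.6, 15.5, 14.8 and 15.3 in Neu, and 43.4, 44.6, 41.2 and 40.97 in CTR. The 3 groups stood apart, with Neu+NETS highest and Neu lowest. Rrm2 rose 4.40-fold in Neu+NETS against Neu (log2 fold change 2.14 ± 0.036, adjusted p = 2.24e-17). It rose 1.65-fold in Neu+NETS against CTR (0.72 ± 0.035, adjusted p = 3.55e-11) and fell 2.67-fold in Neu against CTR (-1.42 ± 0.036, adjusted p = 6.61e-15).

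Its partner Rrm1 moved over a smaller range. Rrm1 (ENSMUSG00000030978; chromosome 7, 102090902 to 102118978, plus strand) had 34.5, 35.9, 35.7 and 35.9 FPKM in Neu+NETS, 19.8, 20.8, 20.1 and 20.9 in Neu, and 35.5, 34.5, 35.5 and 35.6 in CTR. The Neu libraries lay below all others, and Neu+NETS and CTR overlapped. Rrm1 rose 1.62-fold in Neu+NETS against Neu (log2 fold change 0.70 ± 0.024, adjusted p = 1.15e-13) and fell 1.66-fold in Neu against CTR (-0.73 ± 0.024, adjusted p = 1.47e-13). Against CTR, its change in Neu+NETS was -0.04 ± 0.024 (adjusted p = 0.207), and the sign turned on the authors' FPKM. The ratio of Rrm2 to Rrm1 FPKM within a library was 1.97 to 2.13 in Neu+NETS, 0.733 to 0.792 in Neu and 1.15 to 1.29 in CTR, with no overlap between groups. Rrm2b, the alternative small subunit that p53 induces, stood far lower, at 3.49 ± 0.185 FPKM in Neu+NETS, 2.15 ± 0.00587 in Neu and 1.85 ± 0.124 in CTR. It was higher in both co-cultures than in CTR (1.82-fold in Neu+NETS, adjusted p = 5.77e-09; 1.21-fold in Neu, adjusted p = 0.00134).

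The enzymes of thymidylate supply differed in how Neu+NETS stood against CTR. Tyms (ENSMUSG00000025747; chromosome 5, 30263200 to 30278615, minus strand) had 9.36, 9.83, 9.77 and 9.75 FPKM in Neu+NETS, 5.03, 4.76, 4.95 and 4.69 in Neu, and 9.83, 9.85, 9.11 and 9.81 in CTR. Neu lay apart below, and Neu+NETS overlapped CTR. Tyms rose 1.85-fold in Neu+NETS against Neu (log2 fold change 0.89 ± 0.042, adjusted p = 7.50e-12) and fell 1.91-fold in Neu against CTR (-0.93 ± 0.042, adjusted p = 8.23e-12). Its change in Neu+NETS against CTR was -0.04 ± 0.041 (adjusted p = 0.424), also with a sign that turned on FPKM.

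Dut (ENSMUSG00000027203; chromosome 2, 125089110 to 125100528, plus strand), which hydrolyses dUTP and so keeps uracil out of DNA, had 51.6, 55.3, 53.5 and 53.8 FPKM in Neu+NETS, 21.7, 22.2, 22.7 and 23.2 in Neu, and 45.1, 46.4, 42.6 and 43.5 in CTR. All 3 groups stood apart. Dut rose 2.22-fold in Neu+NETS against Neu (log2 fold change 1.15 ± 0.035, adjusted p = 2.73e-14) and 1.17-fold against CTR (0.22 ± 0.034, adjusted p = 4.85e-05), and fell 1.90-fold in Neu against CTR (-0.93 ± 0.035, adjusted p = 9.14e-13).

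Tk1 was the member that fell in both co-cultures. Tk1 (ENSMUSG00000025574; chromosome 11, 117706352 to 117716918, minus strand) had 10.4, 10.6, 10.9 and 10.4 FPKM in Neu+NETS, 9.04, 8.80, 7.72 and 9.71 in Neu, and 16.5, 16.0, 15.7 and 16.6 in CTR. Every co-culture library lay below every CTR library. Tk1 fell 1.58-fold in Neu+NETS against CTR (log2 fold change -0.66 ± 0.050, adjusted p = 1.05e-08) and 1.77-fold in Neu against CTR (-0.82 ± 0.050, adjusted p = 3.65e-10). Between the co-cultures it rose 1.12-fold in Neu+NETS against Neu (0.16 ± 0.050, adjusted p = 0.0115). That change was 0.10 (adjusted p = 0.0375) without Neu replicate 3, the lowest library, and 0.24 (adjusted p = 7.96e-04) with limma on log2(FPKM + 1). The ratio of Tk1 to Tyms FPKM was 1.07 to 1.11 in Neu+NETS, below both 1.56 to 2.07 in Neu and 1.62 to 1.72 in CTR. The antisense gene Gm20708 spans the whole of Tk1 and reached at most 1.28 FPKM, and Afmid overlaps Tk1 by 169 bases and reached 2.21 FPKM. Both lie on the other strand, and with no strand setting given, their reads and those of Tk1 cannot be told apart.

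Both genes of pyrimidine synthesis rose in Neu+NETS and fell in Neu against CTR. Umps (ENSMUSG00000022814; chromosome 16, 33775152 to 33787408, minus strand), which makes UMP from orotate, had 38.8, 39.8, 39.1 and 37.9 FPKM in Neu+NETS, 11.4, 12.2, 10.7 and 11.7 in Neu, and 27.95, 27.5, 28.8 and 28.4 in CTR. All 3 groups stood apart. Umps rose 3.14-fold in Neu+NETS against Neu (log2 fold change 1.65 ± 0.037, adjusted p = 5.51e-16) and 1.34-fold against CTR (0.42 ± 0.036, adjusted p = 5.06e-08), and fell 2.35-fold in Neu against CTR (-1.23 ± 0.037, adjusted p = 5.76e-14).

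Cad (ENSMUSG00000013629; chromosome 5, 31212124 to 31235823, plus strand), a fused protein of carbamoyl phosphate synthetase, aspartate transcarbamoylase and dihydroorotase, had 45.2, 44.9, 41.6 and 43.9 FPKM in Neu+NETS, 18.9, 18.8, 18.8 and 21.9 in Neu, and 35.7, 38.6, 37.8 and 37.5 in CTR. Again no groups overlapped, and Neu replicate 4 stood above its 3 fellow libraries. Cad rose 2.08-fold in Neu+NETS against Neu (log2 fold change 1.06 ± 0.042, adjusted p = 7.25e-13) and 1.13-fold against CTR (0.18 ± 0.041, adjusted p = 0.00159), and fell 1.84-fold in Neu against CTR (-0.88 ± 0.042, adjusted p = 1.59e-11). The ratio of Umps to Cad FPKM was 0.858 to 0.939 in Neu+NETS, 0.536 to 0.649 in Neu and 0.713 to 0.782 in CTR.

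The head-to-head purine genes moved by different amounts. Ppat (ENSMUSG00000029246; chromosome 5, 77061096 to 77099425, minus strand) had 32.3, 32.6, 34.4 and 34.6 FPKM in Neu+NETS, 14.4, 13.9, 13.4 and 12.7 in Neu, and 25.6, 24.3, 25.7 and 24.1 in CTR. The 3 groups stood apart. Ppat rose 2.29-fold in Neu+NETS against Neu (log2 fold change 1.19 ± 0.042, adjusted p = 1.64e-13) and 1.298-fold against CTR (0.38 ± 0.041, adjusted p = 1.05e-06), and fell 1.76-fold in Neu against CTR (-0.82 ± 0.042, adjusted p = 4.22e-11).

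Paics (ENSMUSG00000029247; chromosome 5, 77099154 to 77115356, plus strand) had 104, 106, 108 and 105 FPKM in Neu+NETS, 74.6, 74.1, 71.6 and 73.7 in Neu, and 100.4, 94.8, 98.4 and 98.7 in CTR. Neu lay well below, and Neu+NETS lay just above CTR without overlap in FPKM. Paics rose 1.34-fold in Neu+NETS against Neu (log2 fold change 0.42 ± 0.026, adjusted p = 1.96e-10) and fell 1.28-fold in Neu against CTR (-0.36 ± 0.026, adjusted p = 2.58e-09). Its change in Neu+NETS against CTR, 0.06 ± 0.025, was not called (adjusted p = 0.0639), and it was called under some other settings, with an adjusted p of 0.0124 after median-of-ratios scaling. The ratio of Ppat to Paics FPKM was 0.309 to 0.329 in Neu+NETS, 0.172 to 0.193 in Neu and 0.244 to 0.261 in CTR. Reads from the 272 shared bases could count for either gene.

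**Figure D3:**
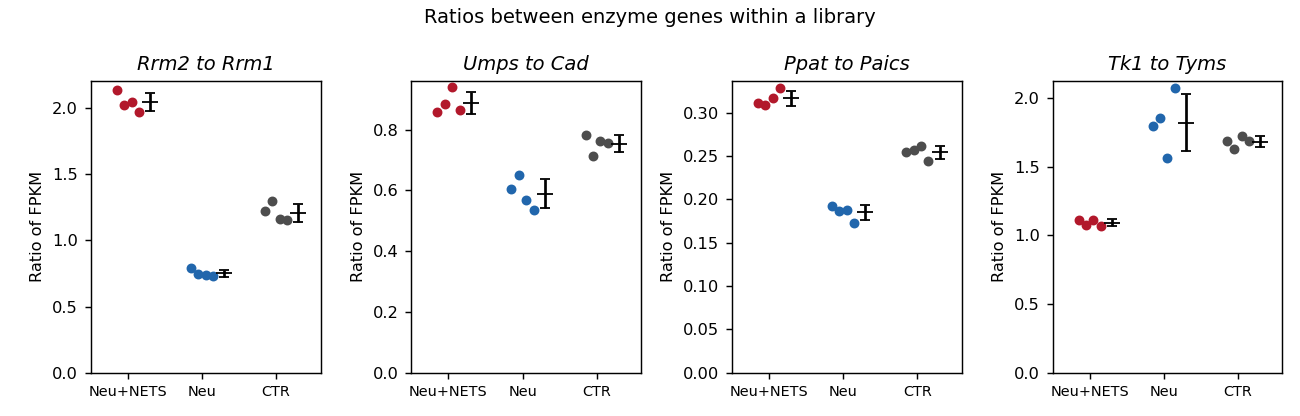
Ratio of FPKM between pairs of enzyme genes within a library (y axis, from 0) in Neu+NETS, Neu and CTR; points are libraries, black bars mean ± SD. The ratios of Rrm2 to Rrm1, Umps to Cad and Ppat to Paics lie highest in Neu+NETS and lowest in Neu, and that of Tk1 to Tyms lies lowest in Neu+NETS.

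In all 3 groups Paics had the highest FPKM of the 9 and Tyms the lowest, with Tk1 next to Tyms. Rrm2 had rank 2 in Neu+NETS (72.5 ± 1.21 FPKM), rank 5 in Neu (15.3 ± 0.359) and rank 3 in CTR (42.6 ± 1.76), where its libraries overlapped those of Dut (44.4 ± 1.69). The other neighbours whose libraries overlapped were Rrm1 and Ppat in Neu+NETS and Rrm1 and Cad in Neu. The order between genes depends on the length that the authors' FPKM divide by. The length implied by counts and FPKM was 1.08 times that of all annotated exons together, transcripts with retained introns included (GENCODE M21), for each member. This shared factor also held for Umps, whose exons together equal its longest coding transcript (3484 bases), so it is not particular to the length of a gene. With that factor included, the implied length was 3.89 times the longest coding transcript for Tk1, 2.97 times for Rrm1 and 2.08 times for Tyms, against 1.08 to 1.36 times for the other 6. The FPKM of Tk1, Rrm1 and Tyms are therefore low against the other members on that scale, while comparisons of a gene between groups do not depend on the length.

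The rest of the purine and pyrimidine routes was described from lists of their enzymes. Of all genes tested, 29.4% were called higher and 33.1% lower in Neu+NETS against Neu. These shares were 21.6% and 23.7% in Neu+NETS against CTR, and 26.1% and 27.9% in Neu against CTR. They stand beside the counts of every list below. Of 11 further genes of purine synthesis, 8 rose and 3 fell in Neu+NETS against Neu (median log2 fold change 0.65), 8 rose and 1 fell in Neu+NETS against CTR (0.14), and 3 rose and 8 fell in Neu against CTR (-0.53). Gart, a fused enzyme that acts between Ppat and Paics, averaged 54.4 ± 1.302 FPKM in Neu+NETS, 19.0 ± 0.542 in Neu and 47.8 ± 0.819 in CTR. It rose 2.66-fold in Neu+NETS against Neu (adjusted p = 5.63e-16), as did Adsl, the adenylosuccinate lyase gene, 2.32-fold (adjusted p = 3.63e-15) and Pfas 2.24-fold (adjusted p = 2.35e-15). Adss1, a synthetase of the branch to AMP, ran the other way, at 37.2 ± 2.40 FPKM in Neu+NETS, 126 ± 2.58 in Neu and 58.6 ± 3.204 in CTR (3.66-fold lower in Neu+NETS than in Neu, adjusted p = 6.78e-16). Impdh1, of the branch to GMP, averaged 36.1 ± 0.608 FPKM in Neu+NETS, 43.3 ± 1.71 in Neu and 25.4 ± 0.301 in CTR, and was higher in Neu+NETS (1.37-fold, adjusted p = 1.38e-09) and in Neu (1.77-fold, adjusted p = 4.34e-13) than in CTR.

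Of 4 further pyrimidine genes, 3 rose and 1 was not called in Neu+NETS against Neu, 1 rose and 1 fell in Neu+NETS against CTR, and 4 fell in Neu against CTR. Ctps1, which makes CTP from UTP, averaged 39.5 ± 0.839 FPKM in Neu+NETS, 9.49 ± 0.352 in Neu and 28.5 ± 0.821 in CTR. It rose 3.87-fold in Neu+NETS against Neu (adjusted p = 7.03e-17) and fell 2.89-fold in Neu against CTR (adjusted p = 3.69e-15). Dhodh, the mitochondrial enzyme that acts between Cad and Umps, averaged 8.46 ± 0.516 FPKM in Neu+NETS, 3.89 ± 0.304 in Neu and 7.76 ± 0.486 in CTR, and rose 2.02-fold in Neu+NETS against Neu (adjusted p = 1.50e-10).

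Of 10 further genes of deoxynucleotide supply and clearance, 9 rose and 1 fell in Neu+NETS against Neu, 6 rose and 1 fell in Neu+NETS against CTR, and 1 rose and 9 fell in Neu against CTR. The nucleoside diphosphate kinase gene Nme1 averaged 39.2 ± 1.45 FPKM in Neu+NETS, 17.0 ± 0.245 in Neu and 31.5 ± 0.261 in CTR, and rose 2.14-fold in Neu+NETS against Neu (adjusted p = 1.25e-14). Samhd1, a hydrolase that clears deoxynucleotides, averaged 20.7 ± 0.511 FPKM in Neu+NETS, 29.8 ± 0.326 in Neu and 35.3 ± 0.887 in CTR, and fell 1.77-fold in Neu+NETS (adjusted p = 8.02e-14) and 1.14-fold in Neu (adjusted p = 3.42e-06) against CTR.

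Of 14 genes of nucleoside and base salvage, 8 rose and 4 fell in Neu+NETS against Neu, 6 rose and 3 fell in Neu+NETS against CTR, and 4 rose and 8 fell in Neu against CTR. Pnp, the purine nucleoside phosphorylase gene, was lower than CTR in both co-cultures, as Tk1 was, with 28.5 ± 0.847 FPKM in Neu+NETS (adjusted p = 9.61e-07), 21.5 ± 0.592 in Neu (adjusted p = 4.85e-11) and 33.2 ± 0.806 in CTR. Upp1, the uridine phosphorylase gene, was low but higher than CTR in both, at 2.19 ± 0.511 FPKM in Neu+NETS (adjusted p = 1.77e-05), 3.30 ± 0.420 in Neu (adjusted p = 9.60e-08) and 0.804 ± 0.197 in CTR. The nucleoside carrier gene Slc29a1 rose 1.64-fold in Neu+NETS against Neu (adjusted p = 4.07e-11).

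Of 5 folate enzymes, which supply carbon units to Gart and Tyms, 4 rose and 1 fell in Neu+NETS against Neu, 3 rose and 2 were not called in Neu+NETS against CTR, and 1 rose and 4 fell in Neu against CTR. Mthfd2, a mitochondrial enzyme of that supply, averaged 39.0 ± 0.713 FPKM in Neu+NETS, 7.63 ± 0.133 in Neu and 21.2 ± 0.767 in CTR, and rose 4.75-fold in Neu+NETS against Neu (adjusted p = 7.53e-18). Shmt1, the cytosolic serine hydroxymethyltransferase gene, rose 3.08-fold in that comparison (adjusted p = 4.35e-15). Mthfd1l ran the other way, at 40.2 ± 0.176 FPKM in Neu+NETS, 56.0 ± 1.19 in Neu and 37.2 ± 0.758 in CTR (1.497-fold lower in Neu+NETS than in Neu, adjusted p = 2.23e-12).

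**Figure D4:**
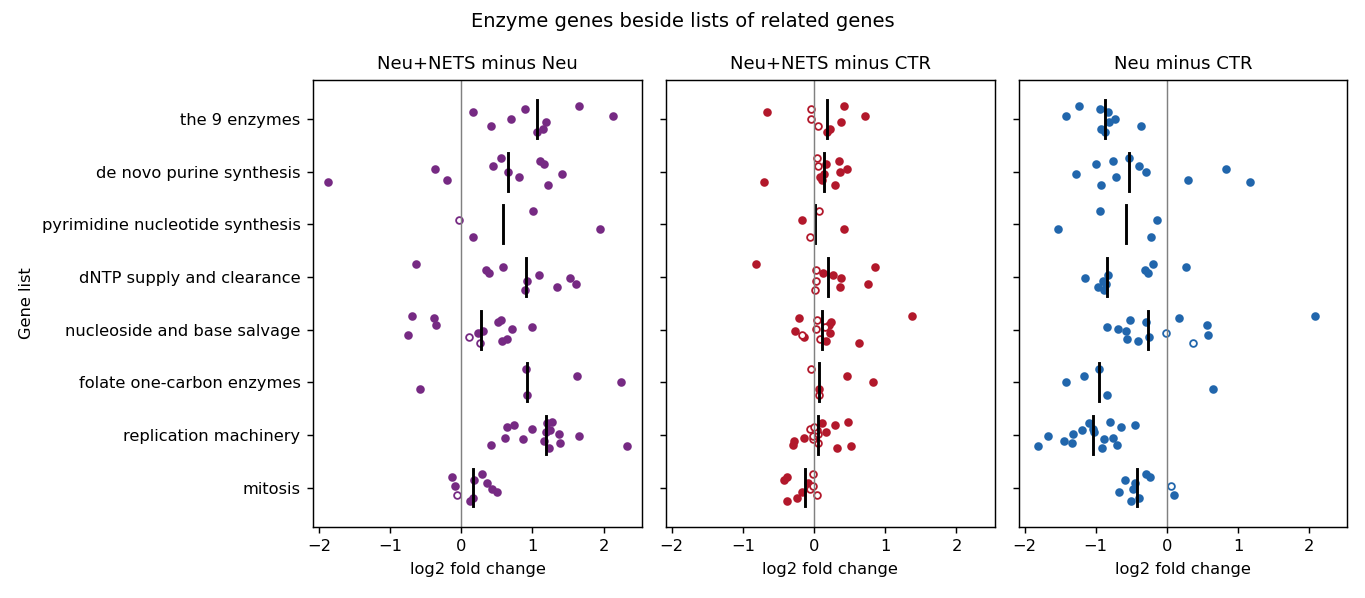
Log2 fold change (x axis) of the 9 enzyme genes and of the genes of 7 related lists (y axis) in the 3 comparisons; filled points were called, open points were not, and black bars are medians. The enzymes and the replication list have medians of 1.06 and 1.20 in Neu+NETS minus Neu and of -0.88 and -1.03 in Neu minus CTR, while the mitosis list has 0.17 and -0.43.

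Genes of the replication machinery were set beside the enzymes, since both serve DNA synthesis. Of 16 such genes, 16 rose in Neu+NETS against Neu, 6 rose and 3 fell in Neu+NETS against CTR, and 16 fell in Neu against CTR. The helicase subunit gene Mcm2 averaged 40.6 ± 1.65 FPKM in Neu+NETS, 12.0 ± 0.223 in Neu and 39.6 ± 0.774 in CTR. Cdc6, which loads that helicase, averaged 21.1 ± 0.674 FPKM in Neu+NETS, 3.91 ± 0.256 in Neu and 14.3 ± 0.279 in CTR. Of 10 genes of mitosis, 7 rose and 2 fell in Neu+NETS against Neu, 6 fell and 4 were not called in Neu+NETS against CTR, and 1 rose and 8 fell in Neu against CTR. Mki67, the proliferation marker, averaged 47.6 ± 1.77 FPKM in Neu+NETS, 39.3 ± 1.304 in Neu and 61.5 ± 1.59 in CTR, so that, like Tk1, it was lower than CTR in both co-cultures (adjusted p = 4.12e-09 in Neu+NETS and 2.45e-11 in Neu). Ccnb1, cyclin B1, averaged 62.6 ± 1.78 FPKM in Neu+NETS, 41.3 ± 1.17 in Neu and 68.4 ± 1.79 in CTR.

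Of 14 measured regulators of the entry into S phase, 10 rose and 4 fell in Neu+NETS against Neu, 7 rose and 5 fell in Neu+NETS against CTR, and 4 rose and 10 fell in Neu against CTR. Ccne1, cyclin E1, averaged 50.4 ± 0.680 FPKM in Neu+NETS, 11.3 ± 0.589 in Neu and 31.1 ± 0.647 in CTR. Tfdp1, the partner of E2F factors, averaged 43.2 ± 1.01 FPKM in Neu+NETS, 18.6 ± 0.635 in Neu and 40.2 ± 0.780 in CTR. Cdkn1a, the p21 inhibitor of cyclin-dependent kinases, averaged 24.2 ± 1.36 FPKM in Neu+NETS, 109 ± 2.47 in Neu and 15.1 ± 0.796 in CTR. It was 7.50-fold higher in Neu than in CTR (adjusted p = 2.64e-17), 1.55-fold higher in Neu+NETS than in CTR (adjusted p = 4.30e-09) and 4.83-fold lower in Neu+NETS than in Neu (adjusted p = 1.10e-16).

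Among 7060 other named genes with a mean of at least 5 FPKM, the genes nearest to each member were taken by Euclidean distance in the pair of log2 fold changes against CTR (Neu+NETS and Neu), which share the CTR libraries. The nearest to Rrm2 were Ccne1 (distance 0.0706), Mthfd2 (0.107) and Wdr76 (0.196). Umps had Slc52a2 (0.0251), Ddx21 (0.0592) and Sac3d1 (0.0620) nearest, and Tk1 had Sumo3 (0.0250), Syngr1 (0.0382) and Mvb12b (0.0665). The nearest genes of the other 6 members all lay closer, within 0.0218, with Nup153 nearest to Tyms, Cenpv to Dut, Utp14a to Cad, Gins4 to Paics, Wdr73 to Ppat and Scrib to Rrm1. The distance describes likeness of the 2 changes only.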

How the data were processed

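Gene-level values of 12 libraries of polyadenylated RNA came from 1 table. Per the submitters' processing notes, HISAT2 2.0.4, StringTie 1.3.4d, edgeR and build GRCm39 were used, with no roles stated. Strandedness was not given in the sources used here, nor was the annotation release. The deposited table holds estimated counts, all whole numbers with column totals that differ, and 33.0% of values from 2 to 41 are multiples of 4 (25% in an even spread), so a unit may be less than a whole fragment and precision may be overstated. Its FPKM columns are the authors' own, so named in the file header. Of the columns of per-sample values, 0 were unmatched. Counts entered edgeR 4.0.16 (R 4.3.3) with filterByExpr, TMM factors of 0.970 to 1.03, a mean per group and quasi-likelihood tests, tried on simulated data. The simulated data held far fewer changed genes than were called here, as many up as down, and were not filtered. They therefore did not test the scaling under changes as widespread as these. Alternatives were DESeq2 1.42.0, other scaling and filters, counts divided by 4, limma 3.58.1 on log2(FPKM + 1) and log2(FPKM + 0.1), fits of 2 groups, a replicate block and leaving out each library. SE is the log2 fold change over the square root of F. The members and lists were chosen with earlier results of these data known. All 9 members were named; of other lists, up to 4 called genes per comparison with the smallest adjusted p could be named, and those given are a selection of these, made after their values were seen, beside markers as levels. Genes listed but absent from the results, such as E2f7, S100a9 and Ly6g, were not analysed here. Some listed genes count in their lists but are not reported here by name. Promoter windows are from RefSeq (GRCm38.p6), matched by symbol for all 9 members, and were not joined to GRCm39 coordinates.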

Additional observations from a re-analysis of the deposited data

Results flagged for a closer look

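In 10 of 112 groups of 4 libraries, over the members and most of the other genes given by level, the highest or lowest library stood apart from the other 3 by a gap beyond Dixon's critical value for 4 samples, and chance flags about 1 in 20 groups. A further 5 groups with 3 or more libraries at 0 were left out. Of 27 groups of the members, 5 did. Cad had 21.9 FPKM in Neu replicate 4, against 18.8 to 18.9 in the other Neu libraries. Rrm1 had 34.5 FPKM in Neu+NETS replicate 1 (35.7 to 35.9 in the others) and 34.5 in CTR replicate 2 (35.5 to 35.6 in the others). Tyms had 9.36 FPKM in Neu+NETS replicate 1 (9.75 to 9.83 in the others) and 9.11 in CTR replicate 3 (9.81 to 9.85 in the others). These gaps are small against the differences between Neu and the other groups.

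Among the genes of related lists, Neu replicate 4, the library that stood apart over all genes, was also highest for Adss1 (130.3 FPKM) and Dhodh (4.35). For the members, the same share of a library's counts gave a higher FPKM in Neu replicate 4 than in the other Neu libraries. The part of that scaling in the gaps of this library was not tested. CTR replicate 1 was lowest for Pfas (20.2 FPKM). Of the markers, S100a8 stood at 0.257 FPKM in Neu replicate 1 and Il1r2 at 0.218 in CTR replicate 1.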

How the results depend on the processing

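Across 21 other settings, all 9 members kept their direction and their call in Neu+NETS against Neu and in Neu against CTR, and so did the 6 called members in Neu+NETS against CTR. The 3 that were not called there were the ones that varied. Rrm1 and Tyms turned sign with limma on FPKM: Rrm1 to 0.0096 with a pseudocount of 1, filtered or not, and 0.0098 with 0.1, and Tyms to 0.0041 and 0.0046. Paics was called at 0.065 with counts divided by 4, 0.069 with no filter, 0.084 with median-of-ratios scaling, 0.091 with DESeq2, and 0.108 and 0.109 with limma (pseudocounts of 1 and 0.1); leaving out 1 library gave 0.048 to 0.077, with a call only without CTR replicate 1. The median of all genes tested in Neu+NETS against Neu was -0.05 with edgeR over 16387 genes, -0.03 with median-of-ratios scaling, 0.10 with limma on the 11626 genes past its filter and 0 with limma unfiltered. Scaling, test and gene set differ together there, and the cause was not tested. Same-numbered replicates did not deviate together (correlations of -0.055 to 0.043 over 12 pairs, 1 of 12 libraries closest to its own number). With the replicate number as a block, Paics was 0.061 (adjusted p = 0.0813) and no call of a member changed. The members had at least 1969 counts in each library, and depth limits only the markers near 0.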
